A study of Mus musculus with 6 samples.

Results

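The genes described here are Ren1, Agtr1a, Agtr1b and Ace of the renin-angiotensin system, and Akr1b7, a gene of the renin cell lineage. These 5 genes were chosen by name out of 23998 gene symbols in the count tables of a single-cell study of mouse kidney. Cells came from kidneys of healthy mice and of mice at day 2 and day 10 of unilateral ureteric obstruction (UUO), a surgical block of urine outflow that injures the tubules and leads to fibrosis. Kidneys were digested with enzymes, and sorted cells of a mesenchyme gate and of an endothelia gate were sequenced with Smart-seq2, a method that reads whole transcripts from 1 cell per well. The 6 plates mixed cells of the 3 conditions, and the sample labels name no transgene, mutation or drug for any group. The count tables hold an eGFP entry, however, which had a read in 95.6% of mesenchyme and 16.7% of endothelia wells, so the mice may carry an eGFP reporter that the labels do not describe. Strain, sex, age and the antibodies behind the gates are not given in the sources used here. The plate layouts number the wells of each condition from 1 to 4, and this number was taken to mark the mouse, so that n = 4 for each condition and gate. Of 2292 sorted wells, 2235 held at least 1000 genes and 20000 reads and were kept. The mesenchyme gate gave 364 wells of healthy, 366 of day 2 and 376 of day 10 kidneys, and the endothelia gate gave 380, 368 and 381.

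Renin, the product of Ren1, is an enzyme that cuts angiotensinogen to angiotensin I. It is secreted by juxtaglomerular cells, which are modified smooth muscle cells in the wall of the afferent arteriole. Angiotensin-converting enzyme (ACE, from Ace), held on the surface of endothelial and some epithelial cells, makes angiotensin II, which contracts vessels through the AT1 receptor. Rodents have a pair of genes for that receptor, Agtr1a and Agtr1b. Akr1b7 encodes an aldo-keto reductase that is known in mouse kidney as a product of the renin cell lineage. In adult mice, smooth muscle cells of the arterioles are known to take up renin expression when blood pressure or salt is low, a process called recruitment.

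The promoters of Ren1 and Akr1b7 are shown because these genes were found in the same wells. Each run holds the 250 bases before the RefSeq start (GRCm38.p6, plus strand), at chr1:133350424-133350673 for Ren1 and chr6:34412112-34412361 for Akr1b7, and capitals mark the letters TATAAA and AATAAA.
Ren1: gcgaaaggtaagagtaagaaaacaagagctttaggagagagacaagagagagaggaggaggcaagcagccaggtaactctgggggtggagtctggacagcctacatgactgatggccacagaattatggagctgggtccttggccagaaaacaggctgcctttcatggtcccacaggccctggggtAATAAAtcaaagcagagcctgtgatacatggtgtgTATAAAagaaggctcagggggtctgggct
Akr1b7: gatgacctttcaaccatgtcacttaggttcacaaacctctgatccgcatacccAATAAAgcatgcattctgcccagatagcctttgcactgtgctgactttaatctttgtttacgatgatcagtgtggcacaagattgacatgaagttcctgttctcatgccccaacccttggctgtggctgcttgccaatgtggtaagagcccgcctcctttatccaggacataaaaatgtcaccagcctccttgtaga
TATAAA, the common form of the TATA box, stands 29 bases before the Ren1 start, and AATAAA, which shares letters with it, stands 64 bases before. In Akr1b7 AATAAA stands 197 bases before the start and TATAAA is not in the window. Agtr1b has TATAAA 31 bases before its start, and the first of 2 RefSeq promoters of Ace holds it on the opposite strand, also 31 bases before. Among 32851 RefSeq promoter windows of 300 bases, 13.6% held TATAAA and 19.6% AATAAA on either strand. TGGGAA (in 25.6% of windows) and TGACG (20.8%) were searched on both strands and found in none of the windows searched, those of Ren1, Akr1b7, Agtr1b and Ace. Agtr1a had no window in the table. In the GENCODE annotation of GRCm38, Ren1 lies at chr1:133350510-133360325, Akr1b7 at chr6:34412334-34423142 and Agtr1a at chr13:30336441-30382867. Agtr1b lies at chr3:20314473-20367177 on the minus strand and Ace at chr11:105967945-105989964. The values below are read counts per gene symbol, and the annotation used to count them is not given in the sources used here.

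The gates differed in the markers of their names. Pdgfrb, a receptor of mural cells and fibroblasts, averaged 999, 1067 and 907 CPM (reads of the gene per 1000000 reads) in the mesenchyme gate of healthy, day 2 and day 10 kidneys, against 3.35, 17.0 and 19.0 CPM in the endothelia gate. Pecam1, an endothelial adhesion molecule, averaged 0.998, 3.11 and 3.74 CPM in the mesenchyme gate, against 2262, 2201 and 2571 CPM in the endothelia gate. Neither gate was pure. Of 1106 mesenchyme wells, 957 fell in the mural and fibroblast-like clusters described below, while 59 had parietal epithelium markers, 39 podocyte markers and 51 fell in other clusters. The sum of 5 podocyte markers averaged 1589, 3352 and 2324 CPM in the mesenchyme gate, against 3063, 2925 and 2480 CPM in the endothelia gate. A plate held 116992491 to 142898570 reads on genes, and the median well of a gate and condition 312617 to 447221. In every plate a condition and gate filled the same 4 columns of wells, so an effect of the columns and the condition cannot be told apart. CPM of a whole gate are scaled by TMM over sums of reads per number, while CPM of single wells and of cluster groups are not. In such a sum, more cells with a transcript and more transcript per cell cannot be told apart, and the well values are given for that reason. Reads carry no molecular identifiers, so the limits given for counts of 0 cover counting error only.

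The renin gene, the AT1 receptor genes and Akr1b7 belonged to the mesenchyme gate. Ren1 had at least 1 read in 350 of 1106 mesenchyme wells (31.6%), against 4 of 1129 endothelia wells (0.354%, 10 reads in all), at medians of 353288 reads per mesenchyme well and 397546 per endothelia well. Akr1b7 had a read in 81.4% of mesenchyme and 23.5% of endothelia wells, and at least 100 CPM in 6 endothelia wells. Agtr1a had a read in 57.0% of mesenchyme and 7.44% of endothelia wells, and Agtr1b in 10.3% and 0.266%. Ace was found more often in the other gate, with a read in 4.07% of mesenchyme and 16.8% of endothelia wells. In healthy kidneys the difference between gates passed the threshold (adjusted p under 0.05) for Ren1 (edgeR quasi-likelihood test, adjusted p = 2.46e-08), Agtr1b (8.56e-07), Agtr1a (5.24e-05) and Akr1b7 (5.53e-05). It did not for Ace (log2 difference, mesenchyme over endothelia, -3.65 ± 1.45 SE, adjusted p = 0.0761). In this comparison 23.9% of all genes tested passed. The 12 control wells held 7 reads of Akr1b7 in 5 wells, 4 of Agtr1a in 4 wells and none of Ren1, Agtr1b or Ace, out of 71020 reads, which allows each of the last 3 up to 42.2 CPM.

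Per kilobase of the longest annotated transcript, Akr1b7 was the most abundant member in healthy mesenchyme, at 1073 ± 175 CPM per kilobase (mean ± SD, n = 4). Agtr1a followed at 303 ± 30.8, Ren1 at 23.5 ± 15.2 and Agtr1b at 12.6 ± 3.01 CPM per kilobase. The ranges of Ren1 (11.5 to 45.4) and Agtr1b (8.22 to 15.1) overlapped, and the other neighbours in that order did not. At day 10 the order of Agtr1a and Ren1 was no longer clear, at 190 ± 76.4 CPM per kilobase for Agtr1a and 151 ± 105 for Ren1. Ace stood at 3.54 ± 1.82 CPM per kilobase in healthy endothelia.

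Renin transcript rose in the mesenchyme gate of kidneys at day 10 of obstruction. At day 10 Ren1 reached 472, 92.5, 244 and 152 CPM in numbers 1 to 4, against 72.3, 18.3, 34.0 and 24.8 CPM in healthy kidneys. Every day 10 value was above every healthy value. The log2 change was 2.63 ± 0.33 (SE), higher in 4 of 4 numbers, and passed the test (edgeR, adjusted p = 0.00536), as did 1.32% of all genes in that comparison. At day 2 Ren1 stood at 99.0, 29.5, 55.2 and 127 CPM, which overlapped both other groups. The log2 change was 1.11 ± 0.32 for day 2 against healthy (edgeR, adjusted p = 0.253) and 1.53 ± 0.33 for day 10 against day 2 (edgeR, adjusted p = 0.189). Neither passed, although each was higher in 4 of 4 numbers. Among all genes, 0.459% passed at day 2 against healthy and 0.048% at day 10 against day 2. Without number 3 the day 10 change was 2.57 ± 0.39 and missed the threshold (edgeR, adjusted p = 0.0623), and without number 4 that of day 10 against day 2 was 2.03 ± 0.20 and passed (edgeR, adjusted p = 0.0311).

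In the endothelia gate Ren1 had 3 reads in healthy kidneys, none at day 2 (a limit of 0.0225 CPM over the group, from 3 reads) and 7 at day 10. The difference between gates in the change from healthy passed the threshold for none of the 5 members at day 10 or day 2. For Ren1 the adjusted p of that interaction was 0.688 at day 10 and 0.530 at day 2 (edgeR), in comparisons where 0.254% and 0.0683% of all genes passed. With 10 endothelial reads of Ren1 and 3 of Agtr1b in all, this test cannot decide whether their changes differ between gates. Reads of Ren2, a second renin gene of some mouse strains that is close to Ren1 in sequence, amounted to 3.76% of Ren1 reads in wells with at least 100 CPM of Ren1, and 5 of 1881 wells with no Ren1 read had any. With the reads of both genes added, the day 10 change was 2.60 ± 0.34 (edgeR, adjusted p = 0.00641).

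**Figure D1:**
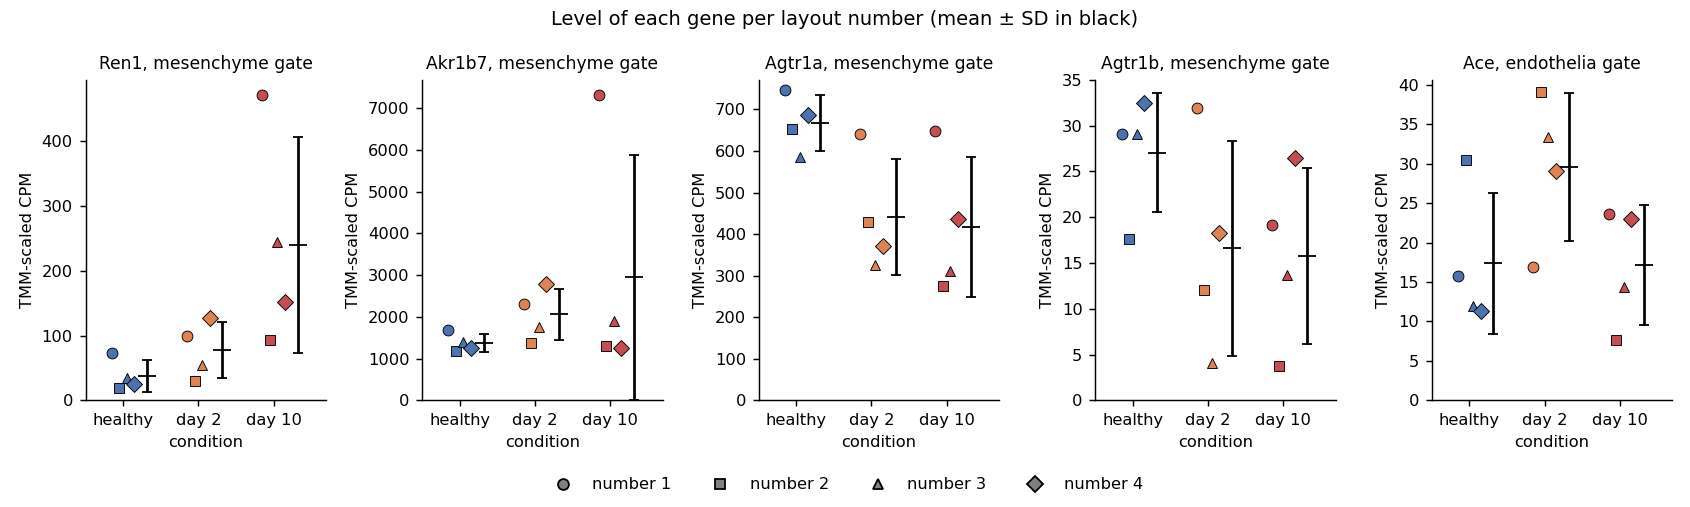
TMM-scaled CPM (linear axis from 0) in healthy, day 2 and day 10 kidneys, of Ren1, Akr1b7, Agtr1a and Agtr1b in the mesenchyme gate and of Ace in the endothelia gate; each marker is 1 of 4 numbers and black bars give the mean ± SD. Ren1 in mesenchyme lies between 92.5 and 472 CPM at day 10, above all healthy values (18.3 to 72.3), and Akr1b7 of number 1 at day 10 stands at 7315 CPM.

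The wells with renin transcript were counted next. A well was counted as Ren1-positive at 100 CPM or more. Such wells made up 31.7%, 17.2%, 29.5% and 21.6% of the mesenchyme wells at day 10, against 5%, 6.56%, 6.56% and 6.56% in healthy kidneys. At day 2 the shares were 18.0%, 9.38%, 12.5% and 17.3%. At this threshold both day 10 and day 2 shares lay above all healthy shares, while day 10 and day 2 overlapped. The mean share was 25.01% ± 6.79 at day 10 and 6.17% ± 0.779 in healthy kidneys (SD, n = 4; exact two-sided permutation test, p = 0.0286, adjusted over 6 shares 0.0857). It was 14.3% ± 4.10 at day 2, with the same exact permutation p and adjusted p against healthy. For day 10 against day 2 the exact permutation p was 0.0857 (adjusted 0.129). The smallest p that 4 against 4 values allow is 0.0286, and none of the 6 passed after adjustment. These are shares of sorted wells, not of cells in the kidney.

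Counting any read gave the same order of means. At least 1 read of Ren1 was seen in 20.6% of healthy, 32.8% of day 2 and 41.2% of day 10 mesenchyme wells, against 0.263%, 0% and 0.787% of endothelia wells. With each well thinned to 100000 reads, which left out 34 shallower mesenchyme wells (14 healthy, 6 day 2 and 14 day 10), the shares were 18.3%, 28.3% and 40.9%. By number, day 2 and healthy shares overlapped at any read (20.3% to 38.6% and 16.7% to 23.0%) and at 10 CPM (17.2% to 32.3% and 10.8% to 18.0%). They also overlapped after thinning and at 1000 CPM. Day 10 shares lay above all healthy shares at any read, at 10 CPM and after thinning, but not at 1000 CPM. The level within positive wells differed less evenly. Their median was 315 CPM in healthy kidneys (22 wells), 312 CPM at day 2 (56 wells) and 684 CPM at day 10 (96 wells). By number the medians were 1344, 274, 452 and 598 CPM at day 10 and 1497, 266, 313 and 315 CPM in healthy kidneys, so the groups overlapped, and number 1 was the highest in both. Wells with 1000 CPM or more numbered 3 in healthy kidneys, 9 at day 2 and 36 at day 10, of which number 1 gave 3, 2 and 25. Without number 1 they numbered 0, 7 and 11. The largest single well held 17.8% of Ren1 reads in healthy kidneys, 10.6% at day 2 and 4.64% at day 10.

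**Figure D2:**
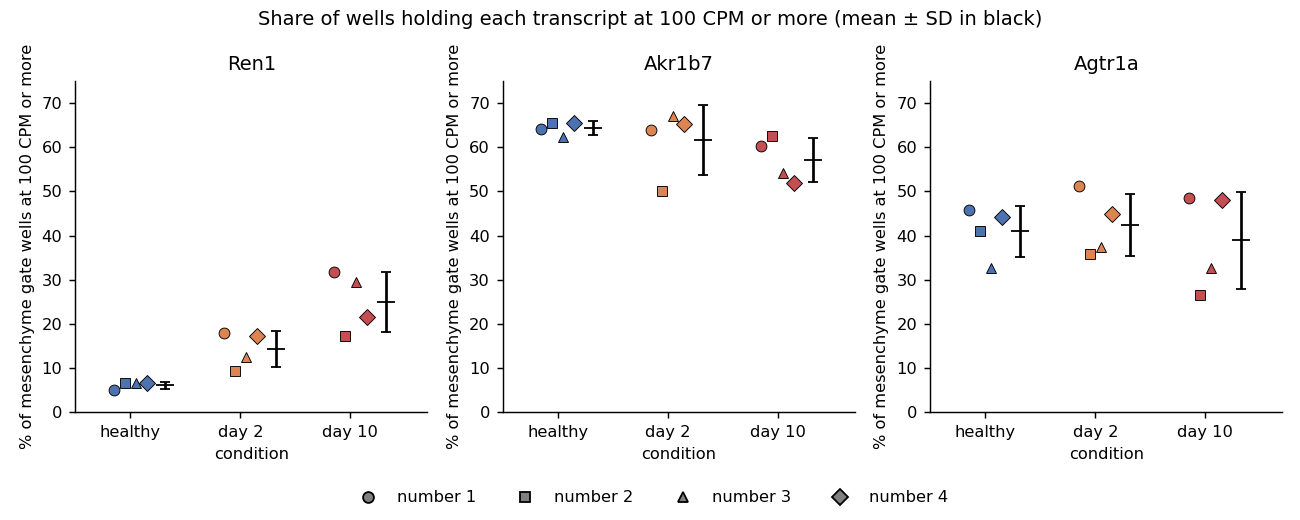
Percent of mesenchyme gate wells with at least 100 CPM of Ren1, Akr1b7 and Agtr1a in healthy, day 2 and day 10 kidneys; each marker is 1 of 4 numbers and black bars give the mean ± SD. Ren1 shares at day 10 (17.2% to 31.7%) and day 2 (9.38% to 18.0%) lie above all healthy shares (5% to 6.56%), and Akr1b7 shares lie between 50% and 67.2% in all 3 conditions.

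The positive wells fell mainly into 3 kinds of mural cell. Clusters were found without the 5 members and Ren2 among the genes used, and are named by markers or by the gene that leads them. Smooth muscle-like wells came from a cluster led by Cnn1 (167 of its 200 wells were healthy) and one led by Itih4 (147 wells of day 2 and 124 of day 10), both with 6 of 7 vascular smooth muscle markers and 3 pericyte markers. An Ephx3-led cluster carried 5 smooth muscle and 4 pericyte markers and is left unnamed. A mesangial-like cluster had 7 of 7 mesangial markers, and a fibroblast-like cluster 5 of 7 fibroblast markers. An unnamed cluster was led by Adora1, which encodes the adenosine A1 receptor, a receptor known to restrain renin release. It had 4 of 7 mesangial markers, none of them among its 10 leading genes, and was left unnamed after the data were seen. It had 487 CPM of Adora1, against 45.1 CPM in smooth muscle-like and 0.0550 CPM in mesangial-like wells. Gja5, the gene of connexin 40, a gap junction protein of juxtaglomerular cells, stood at 421 CPM in Adora1-led wells, against 25.1 CPM in smooth muscle-like and 1312 CPM in mesangial-like wells. Acta2, smooth muscle actin, stood at 9459 CPM in Adora1-led, 31481 CPM in smooth muscle-like and 110.4 CPM in mesangial-like wells.

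Adora1-led wells held the highest pooled Ren1 level of any group in each condition, at 977 CPM in healthy (8 wells), 759.5 CPM at day 2 (25 wells) and 1384 CPM at day 10 (52 wells), all reads pooled. They were 2.20%, 6.83% and 13.8% of the gate's wells, and 3.13% to 17.5% of those of a number at day 10. They held 48.4% of the gate's Ren1 reads in healthy kidneys, 53.2% at day 2 and 63.7% at day 10. The healthy values rest on the 4 wells of number 1. Without that number the 4 remaining healthy wells had 1.58 CPM and 0.0935% of the gate's Ren1 reads, below the 25.5 CPM of smooth muscle-like wells. Without number 1 Adora1-led wells had 748 CPM and 50.8% of reads at day 2, and 806 CPM and 53.3% at day 10. By number, their share of Ren1 reads was 36.8% to 70.6% at day 10, while at day 2 it was 58.3%, 0%, 18.9% and 63.4%.

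Ren1 rose in smooth muscle-like wells as well. In numbers 1 to 4 they had 276, 85.0, 213 and 271 CPM of Ren1 at day 10, against 18.0, 13.3, 42.1 and 24.3 CPM in healthy kidneys, with no overlap. At day 2 they had 55.1 to 77.0 CPM, again above every healthy value. The share of these wells at 100 CPM or more was 4.79% in healthy kidneys (9 of 188), 20.3% at day 2 (35 of 172) and 34.8% at day 10 (46 of 132). Fitted on the smooth muscle-like wells alone, a choice made after the data were seen, Ren1 rose at day 10 by 3.11 ± 0.33 on the log2 scale (edgeR, adjusted p = 0.00131; 0.909% of all genes passed) and at day 2 by 1.59 ± 0.31 (edgeR, adjusted p = 0.0412; 1.05% passed). With the Adora1-led wells left out of the gate, Ren1 stood at 171, 60.6, 89.7 and 97.3 CPM at day 10, against 12.5, 17.7, 33.7 and 25.5 CPM in healthy kidneys. That change was 2.16 ± 0.35 (edgeR, adjusted p = 0.0170; 1.32% of all genes passed). The Cnn1-led and Itih4-led clusters were mostly healthy and mostly obstructed wells, so the conditions of this class sample different clusters.

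The other groups held less. The Ephx3-led cluster had 27.8 CPM of Ren1 in healthy kidneys, 22.3 CPM at day 2 and 98.8 CPM at day 10, where number 1 had 301 CPM and the other numbers 2.76 to 18.2 CPM. Fitted alone, its day 10 change was -0.47 ± 1.40 (edgeR, adjusted p = 0.996), opposite in sign to the gate. Mesangial-like wells had 2.60 CPM in 20 healthy, 32.5 CPM in 14 day 2 and 54.4 CPM in 32 day 10 wells, and 46 of the 66 came from number 1. Fibroblast-like wells had 0.233 CPM over all conditions.

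**Figure D3:**
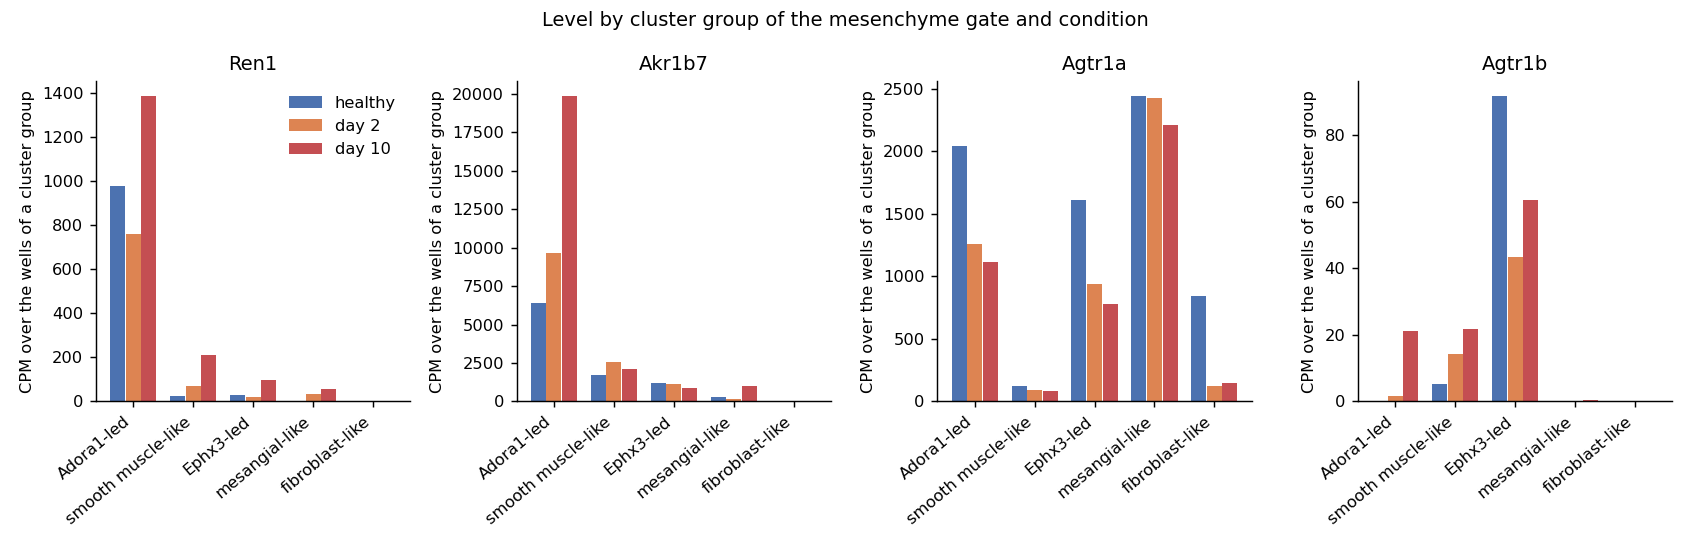
Pooled CPM (linear axis) of Ren1, Akr1b7, Agtr1a and Agtr1b in the cluster groups of the mesenchyme gate for healthy, day 2 and day 10 wells. At day 10 Ren1 and Akr1b7 peak in Adora1-led wells (1384 and 19852 CPM) and Agtr1a in mesangial-like wells (2209 CPM at day 10).

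**Figure D4:**
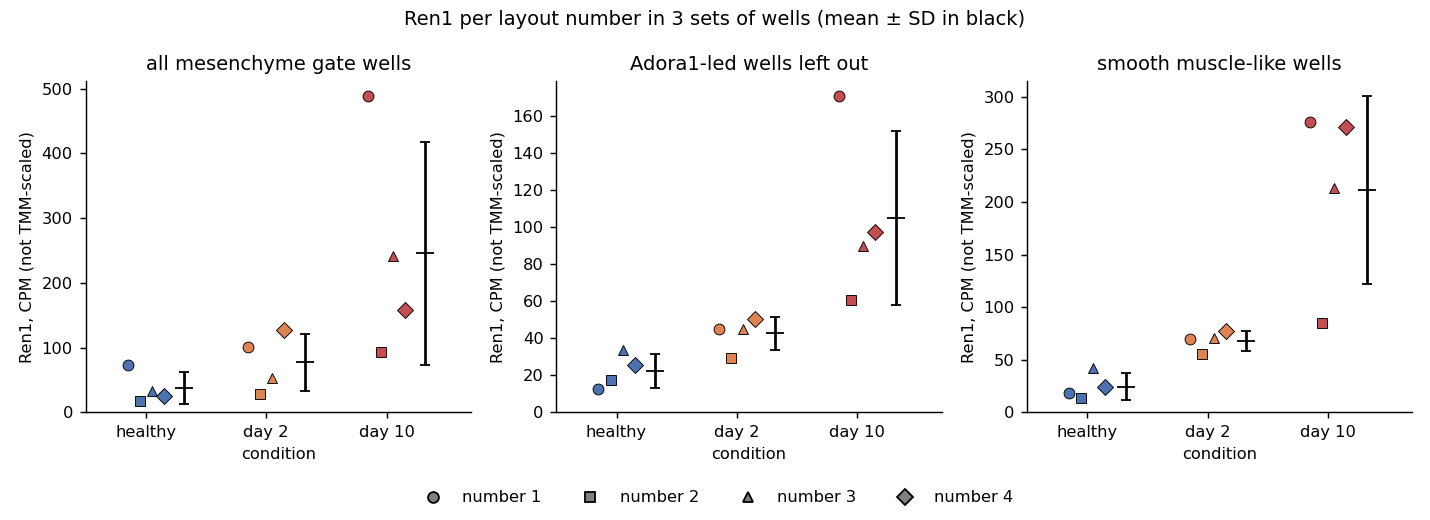
CPM of Ren1 without TMM scaling (linear axis) for each number of healthy, day 2 and day 10 kidneys in all mesenchyme wells, in mesenchyme wells without the Adora1-led cluster and in smooth muscle-like wells; black bars give the mean ± SD. In all 3 sets the day 10 values lie above the healthy ones, at 85.0 to 276 CPM against 13.3 to 42.1 CPM in smooth muscle-like wells.

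The makeup of the gate differed between conditions alongside. Fibroblast-like wells were 3.02% of the gate in healthy kidneys, 3.28% at day 2 and 17.0% at day 10, and smooth muscle-like wells 51.6%, 47.0% and 35.1%. Acta2 fell at day 10 to 15409 ± 2615 CPM, against 24081 ± 1384 CPM in healthy kidneys (SD, n = 4; log2 change -0.66 ± 0.09, edgeR adjusted p = 0.00862). Tubule RNA in the gate moved too, with Kap, a proximal tubule transcript, at 1.61 CPM at day 10 and 150.0 CPM in healthy kidneys (log2 change -6.84 ± 0.72, edgeR adjusted p = 0.00236). Havcr1, an injury transcript of tubules, lay between 0 and 0.0233 CPM in healthy, 0 and 9.81 CPM in day 2 and 0.620 and 34.4 CPM in day 10 mesenchyme. The sum of 6 immune markers averaged 61.0 CPM in healthy (14.3 to 111), 98.0 CPM at day 2 (44.8 to 138) and 197 CPM at day 10 (114 to 339), with all 6 detected. Their part in the Ren1 change was not tested, beyond the within-class values above.

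Akr1b7 was a transcript of most mural wells, and its mean level gave no difference that passed the test. It stood at 1684, 1175, 1387 and 1254 CPM in healthy kidneys, at 2296, 1374, 1767 and 2788 CPM at day 2 and at 7315, 1308, 1909 and 1249.8 CPM at day 10. Number 1 of day 10 stands far above the others, which overlap with healthy values. The log2 change was 0.77 ± 0.37 at day 10 (edgeR, adjusted p = 0.408) and 0.57 ± 0.36 at day 2 (edgeR, adjusted p = 0.648). Without number 1 the day 10 change was 0.22 ± 0.23 (edgeR, adjusted p = 0.792).

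The high value of number 1 lay in few wells. There, 18 wells had 10000 CPM or more of Akr1b7, the 22 Adora1-led wells held 82.3% of its reads and the largest single well 15.7%. With the Adora1-led wells left out, the day 10 values were 1594, 1199.5, 712 and 948 CPM, against 1349.9, 1138, 1376 and 1292 CPM in healthy kidneys, and the fitted change was -0.28 ± 0.20 (edgeR, adjusted p = 0.592). Wells with at least 100 CPM were 57.2% ± 4.98 at day 10, against 64.4% ± 1.55 in healthy kidneys (SD, n = 4; exact two-sided permutation p = 0.0571, adjusted 0.114), and 61.6% ± 7.86 at day 2.

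By cluster group, pooled Akr1b7 was highest in Adora1-led wells, at 6416 CPM in healthy, 9651 CPM at day 2 and 19852 CPM at day 10. Without number 1 these were 21.3, 9487 and 5560 CPM, so that the 4 remaining healthy wells lay below the 1721 CPM of smooth muscle-like wells. Smooth muscle-like wells had 1707, 2582 and 2109 CPM, Ephx3-led wells 1214, 1167 and 895 CPM, and fibroblast-like wells 23.3 CPM over all conditions. In Adora1-led wells of day 10 the level ran from 3466 to 38983 CPM over the 3 numbers with at least 5 such wells.

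Renin wells were almost always Akr1b7 wells, and the reverse did not hold. Of 174 mesenchyme wells with at least 100 CPM of Ren1, 169 (97.1%) also had at least 100 CPM of Akr1b7. Among the 932 other wells 509 did (54.6%), and those 932 include classes with little Akr1b7. Whatever their Ren1, 83.9% of smooth muscle-like, 83.5% of Adora1-led, 69.2% of Ephx3-led and 5.75% of fibroblast-like wells had at least 100 CPM of Akr1b7. The part of cell class in this contrast was not tested. Of wells with Akr1b7, 8.51% were Ren1-positive in healthy kidneys (20 of 235), 24.02% at day 2 (55 of 229) and 43.9% at day 10 (94 of 214). Of 428 wells below 100 CPM of Akr1b7, 5 were Ren1-positive. Median Akr1b7 was 43.0 CPM in 756 wells without a Ren1 read, 953 CPM below 10 CPM of Ren1, 1127 CPM at 10 to 100 CPM, 3762 CPM at 100 to 1000 CPM and 11786 CPM in the 48 wells at 1000 CPM or more. Of these 48 wells, 36 were Adora1-led and 10 smooth muscle-like. Their median Acta2 was 8912 CPM, against 16410.1 CPM in wells without a Ren1 read. These wells share plates and libraries, and their counts are descriptions.

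**Figure D5:**
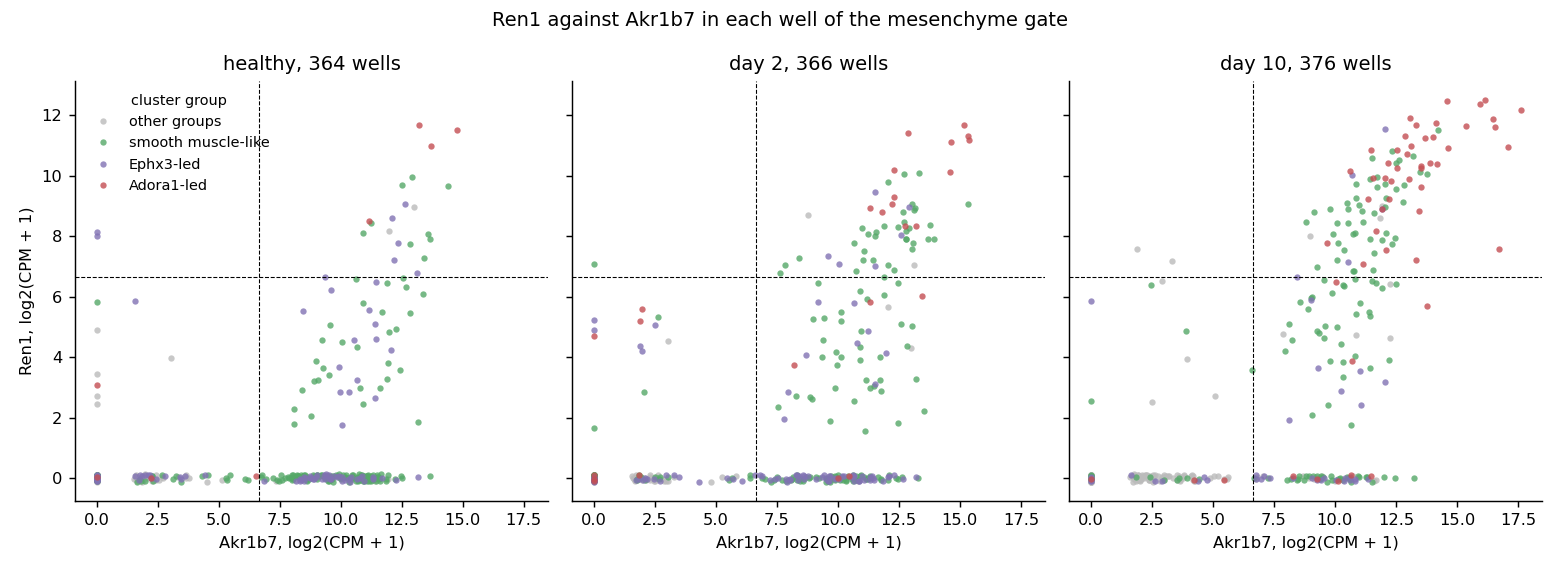
Ren1 against Akr1b7 in single mesenchyme wells, both as log2(CPM + 1), with 1 panel per condition and colours for cluster groups. Wells with high Ren1 sit at the high end of Akr1b7, with 94 of 214 Akr1b7 wells Ren1-positive at day 10, against 20 of 235 in healthy kidneys.

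No change of Agtr1a, the main AT1 receptor gene of rodents, passed the test in the whole gate. It stood at 747, 652, 584 and 686 CPM in numbers 1 to 4 of healthy mesenchyme, at 642, 428, 325 and 372 CPM at day 2 and at 647, 275, 311 and 436 CPM at day 10. The obstructed kidneys were lower in every number, least so in number 1, through which the groups overlapped. The log2 change was -0.75 ± 0.17 at day 10 (edgeR, adjusted p = 0.0646) and -0.64 ± 0.17 at day 2 (edgeR, adjusted p = 0.195), lower in 4 of 4 numbers each. Day 10 against day 2 gave -0.11 ± 0.17 (edgeR, adjusted p = 0.937). With the Adora1-led wells left out the day 10 change was -1.18 ± 0.24 and passed (edgeR, adjusted p = 0.0426).

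The shares of wells with the receptor transcript overlapped at the threshold of 100 CPM, and those at 1000 CPM were highest in healthy kidneys. Wells with at least 100 CPM of Agtr1a were 41.0% ± 5.82 in healthy kidneys, 42.4% ± 7.12 at day 2 (SD, n = 4) and 26.6% to 48.4% at day 10, with a mean of 38.9%. The median of those wells was 1273 CPM in healthy kidneys (154 wells), 652 CPM at day 2 (161 wells) and 771 CPM at day 10 (158 wells). By number it was 1299, 1201, 1856 and 1212 CPM in healthy kidneys, 889, 519, 624 and 518 CPM at day 2 and 906, 872, 675 and 636 CPM at day 10, with every healthy value above all others. Wells with at least 1000 CPM were 24.6% to 28.3% of the gate in healthy kidneys, 12.5% to 24.3% at day 2 and 10.9% to 20% at day 10, and the healthy shares again lay above all others. Ephx3-led wells, which held 62.4% of the gate's Agtr1a reads in healthy kidneys, had 998, 420.5, 692 and 768 CPM in numbers 1 to 4 at day 10, against 1805, 1288, 1827 and 1566 CPM in healthy kidneys, with no overlap. Fitted alone, that change was -1.18 ± 0.27 and did not pass (edgeR, adjusted p = 0.459).

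Mesangial-like wells had the highest Agtr1a level, at 2439 CPM in healthy, 2424 CPM at day 2 and 2209 CPM at day 10. Adora1-led wells had 2043, 1262 and 1111 CPM and smooth muscle-like wells 121, 93.9 and 79.5 CPM. In fibroblast-like wells the values were 839, 122 and 145 CPM (11, 12 and 64 wells). Among Ren1-positive wells, 90.9% had at least 100 CPM of Agtr1a in healthy kidneys (20 of 22), 60.7% at day 2 (34 of 56) and 56.3% at day 10 (54 of 96), against 39.2%, 41.0% and 37.1% of the other wells. In the endothelia gate Agtr1a reached 57.4 CPM in number 4 at day 10, and a single well held 80.8% of that gate's day 10 reads.

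Agtr1b, the second AT1 receptor gene, was rare. It stood at 29.1, 17.7, 29.1 and 32.4 CPM in numbers 1 to 4 of healthy mesenchyme, at 31.98, 12.1, 4.08 and 18.3 CPM at day 2 and at 19.2, 3.71, 13.7 and 26.5 CPM at day 10. The groups overlapped. Neither the change at day 10 (log2 -0.99 ± 0.55, edgeR adjusted p = 0.484) nor that at day 2 (-0.87 ± 0.56, edgeR adjusted p = 0.651) passed. At least 100 CPM was seen in 22 healthy, 17 day 2 and 19 day 10 wells, of which 39 of 58 also had 100 CPM of Agtr1a.

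Agtr1b had its highest pooled level in Ephx3-led wells. These held 85.9% of the gate's Agtr1b reads in healthy kidneys, at 91.6 CPM, and had 43.4 CPM at day 2 and 60.4 CPM at day 10. Smooth muscle-like wells had 5.27 CPM in healthy kidneys, 14.2 CPM at day 2 and 21.6 CPM at day 10, and their fit alone gave a log2 change of 2.78 ± 1.46 at day 10 (edgeR, adjusted p = 0.573), of the other sign than the gate. Mesangial-like wells, the highest in Agtr1a (2320.4 CPM over all conditions), had 0.220 CPM of Agtr1b. The coding sequences of the receptor genes are the same at 90.8% of 1080 bases, with a longest identical run of 66 bases, so single reads could be placed on the wrong one.

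Ace, the converting enzyme, was found in a small set of endothelial wells. In the endothelia gate it stood at 15.7, 30.5, 11.9 and 11.3 CPM in healthy kidneys, at 16.9, 39.1, 33.4 and 29.1 CPM at day 2 and at 23.7, 7.71, 14.4 and 23.0 CPM at day 10. All groups overlapped, and none of the changes passed (edgeR, day 10 against healthy 0.08 ± 0.55, adjusted p = 0.982; day 2 against healthy 0.81 ± 0.54, adjusted p = 0.772; day 10 against day 2 -0.73 ± 0.54, adjusted p = 0.931). In these comparisons 0.627%, 0.143% and 0.0143% of all genes passed. A Gper1-led cluster of 38 wells, with 5 of 6 arterial endothelial markers from a fixed list, held 49.8% of the gate's Ace reads at 276 CPM, and 68.4% of its wells had at least 100 CPM. It held 43.6% of the reads in healthy kidneys (12 wells), 39.3% at day 2 (11 wells) and 66.6% at day 10 (15 wells). Clusters led by Aqp1 and Ssu2, with 5 and 3 of the same 6 markers, had 3.82 and 4.99 CPM of Ace. The other endothelial clusters had at most 17.2 CPM, apart from 13 wells of a Kap-led cluster at 88.3 CPM. Of the gate's 72 wells with at least 100 CPM of Ace, 26 were in the Gper1-led cluster. Clusters led by Ces2e, Cyp26b1 and Esm1, with 4, 4 and 3 glomerular endothelial markers, held 15, 13 and 9 of them. They held 16.6%, 12.2% and 10.6% of the gate's Ace reads. In the mesenchyme gate Ace averaged 1.72 CPM in healthy kidneys, 0.839 CPM at day 2 and 2.05 CPM at day 10, with 59.6% of reads in fibroblast-like wells (13.4 CPM). Adora1-led wells had 0.0790 CPM of Ace, from 2 reads in 1 of 85 wells.

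No further gene of the system passed the test in mesenchyme. Of 22 further genes (angiotensinogen, other receptors and peptidases), 17 were tested in mesenchyme and none passed at day 10 against healthy, at day 2 against healthy or at day 10 against day 2 (edgeR), with 3, 2 and 1 at an unadjusted p under 0.05. Of all genes in these comparisons 1.32%, 0.459% and 0.048% passed, and 13.7%, 10.1% and 8.41% had an unadjusted p under 0.05. Their median log2 change was 0.08 at day 10 and 0.29 at day 2, beside 0.04 and 0.01 for all genes. Enpep, the aminopeptidase that turns angiotensin II into angiotensin III, averaged 528, 630 and 525 CPM in healthy, day 2 and day 10 mesenchyme. Agt, the gene of angiotensinogen, stood at 10.7, 8.31 and 3.30 CPM, and Agtrap, whose product binds the AT1 receptor and lowers its surface level, at 49.7, 61.7 and 83.6 CPM (day 10 change 0.76 ± 0.21, edgeR adjusted p = 0.118). Agtr2, the AT2 receptor gene, had no read in healthy and day 10 mesenchyme. In endothelia 1 of 14 genes tested fell at day 10, beside 0.627% of all genes that passed. It was Klk1, a kallikrein of the distal tubule (log2 -8.82 ± 1.55, edgeR adjusted p = 0.0358), at 0.332 CPM at day 10 and 46.6 CPM in healthy kidneys. In that gate 5 loop and distal tubule markers summed to 12.3 CPM at day 10 (0.262 to 46.1) and 778 CPM in healthy kidneys (72.2 to 1328). Kap averaged 2.57 CPM and 530 CPM (1.67 to 1081 in healthy kidneys). The part of tubule RNA in the fall of Klk1 was not tested. No gene of this list passed in the other endothelial comparisons.

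Of 38 regulators of renin cells, 35 were tested in mesenchyme. At day 10 against healthy 1 rose and 1 fell, at day 2 against healthy 1 rose, and none passed at day 10 against day 2 (edgeR), beside 1.32%, 0.459% and 0.048% of all genes. An unadjusted p under 0.05 was seen for 14, 14 and 8 of the 35, beside 13.7%, 10.1% and 8.41% of all genes. Their median log2 change was -0.01 at day 10 and -0.12 at day 2. Ptgs2, the gene of cyclooxygenase 2, whose prostaglandins stimulate renin release, rose in both. It had no read in healthy mesenchyme (a limit of 0.0240 CPM over the group, from 3 reads), 8.70, 9.19, 20.9 and 58.7 CPM at day 2 (edgeR, adjusted p = 0.00303) and 40.2, 31.2, 43.9 and 80.0 CPM at day 10 (edgeR, adjusted p = 0.00130). It came from 23 wells at day 2, 1 of which held 49.4% of the reads, and from 39 of 376 wells at day 10. At day 2, 14 of these wells were smooth muscle-like, 4 fibroblast-like and 8 Ren1-positive. At day 10, 9 were smooth muscle-like, 15 fibroblast-like and 3 Ren1-positive. Ren1-positive wells were 15.3% of the gate at day 2 and 25.5% at day 10. Adcy5, an adenylyl cyclase gene of renin and smooth muscle cells, fell to 49.4 ± 20.8 CPM at day 10, against 146 ± 39.3 CPM in healthy kidneys (SD, n = 4; log2 -1.60 ± 0.24, edgeR adjusted p = 0.0103). Of 189 healthy wells with a read of Adcy5, 144 were smooth muscle-like, and at day 10 67 of 112 were. The gate held 188 smooth muscle-like wells in healthy kidneys (51.6%) and 132 at day 10 (35.1%). The part of this makeup in the fall of Adcy5 was not tested. The other regulators tested did not pass.

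Of 23 genes of AT1 receptor signalling, 2 fell in mesenchyme at day 10 against healthy and none passed in the other mesenchyme comparisons (edgeR), beside 1.32% of all genes at day 10 and 0.459% and 0.048% in the others. An unadjusted p under 0.05 was seen for 6 at day 10 against healthy, 5 at day 2 against healthy and 4 at day 10 against day 2, beside 13.7%, 10.1% and 8.41% of all genes. Rgs5, which encodes a brake on G protein signalling and marks pericytes and smooth muscle, was among those that fell and stood at 2719 ± 635 CPM at day 10 and 4146 ± 1060 CPM in healthy kidneys (SD, n = 4; log2 -0.59 ± 0.12, edgeR adjusted p = 0.0457). Pooled Rgs5 was 4262 CPM at day 10 and 4602 CPM in healthy kidneys in smooth muscle-like wells, and 5698 and 6203 CPM in Ephx3-led wells. Those groups were 35.1% and 10.9% of the gate at day 10, against 51.6% and 25.3% in healthy kidneys, and the part of this makeup in the gate's change was not tested. The median log2 change of this list was -0.23 at day 10, beside 0.04 for all genes. In endothelia none of 33 regulators and 22 signalling genes tested passed in any of the 3 comparisons (edgeR). Of all genes 0.627% passed at day 10 against healthy, 0.143% at day 2 against healthy and 0.0143% at day 10 against day 2. In that order, an unadjusted p under 0.05 was seen for 8, 4 and 4 regulators and 7, 5 and 4 signalling genes. Beside them stood 10.9%, 8.57% and 6.37% of all genes.

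The genes whose well-to-well pattern was most like that of each member were found by Pearson r of log2(CPM + 1) over 1106 mesenchyme wells, which share plates and differ in depth. For Ren1 they were Ren2 (r = 0.81), Akr1b7 (0.53), Gpr137b-ps (0.40), Ptp4a3 (0.40) and Gpr137b (0.39). For Akr1b7 they were Ptp4a3 (0.59), Pcp4l1 (0.57), Crip1 (0.56), Sncg (0.56) and Mef2c (0.56), so Ptp4a3 was on both lists. For Agtr1a they were Slc12a2 (0.43), Cpm (0.43), Emcn (0.42), Sept4 (0.40) and Ano1 (0.39), and for Agtr1b r was 0.25 with Cpb1 and at most 0.19 with any other gene. Ace, over 1129 endothelia wells, was most like Gper1 (0.39), Gkn3 (0.34), Lox (0.31), Cytl1 (0.31) and Serpinf1 (0.30). Between members, r was 0.19 for Ren1 and Agtr1a and 0.15 for Agtr1a and Agtr1b.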

How the data were processed

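Single cells of mouse kidney in 6 plates of 384 wells were the material. For each plate the authors deposited raw read counts per gene and well and a layout that names each well's gate, condition and number. Per the submitters' processing notes, STAR and mm10 were used, with no version. The counting tool, its annotation and its use of strand are not given in the sources used here. Deposited counts of spike-in RNA were not used. The 24490 entries were added by symbol where 771 of them shared 279 symbols.

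Wells with at least 1000 genes and 20000 reads were kept. Clusters came from scanpy 1.11.5 (2000 variable genes without the members and Ren2, 30 components, 15 neighbours, Leiden resolution 1, seed 0, igraph 0.11.9, 19 clusters). A cluster was named from 3 or more markers detected in at least 50% of its wells at 2 times the mean over clusters, apart from the Adora1-led and Ephx3-led clusters, which were left unnamed. Doublets were not called.

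Counts were summed per gate, condition and number (12 sums per gate), filtered with filterByExpr, scaled with TMM and tested with edgeR 4.0.16 (R 4.3.3) quasi-likelihood F tests with number as a block, adjusted over all genes tested by Benjamini-Hochberg, threshold 0.05. A fit of all 24 sums compared the gates. The number was used as a block because same-numbered sums share plates. Over genes their deviations from group means correlated weakly, at r of 0.0376 to 0.137 in mesenchyme and 0.00616 to 0.168 in endothelia. The layouts do not say that a number is a mouse, so p-values measure the spread between numbers. An SE is the absolute log2 change divided by the root of its F. Shares were tested with exact permutation tests over all arrangements of the values. The scripts were tested on simulated data.

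The members and gene lists were chosen with earlier results of these data known. Genes named beside the members are those of the 3 lists past the threshold (1 of them is not reported here), the 5 most alike genes of each member, gate markers and tubule transcripts. Agt, Agtr2, Enpep, Agtrap, Acta2, Gja5 and Adora1 were named after their values were seen. Alternatives used DESeq2 1.42.0, limma 3.58.1, other filters and scalings, plates as units, stricter wells (2000 genes and 100000 reads) and each number left out. Cluster group levels without number 1 were added after the data were seen.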

Additional observations from a re-analysis of the deposited data

Results flagged for a closer look

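Over 24 sets of 4 numbers, 3 values stood apart from the other 3 by a gap that made up more of the set's range than Dixon's critical value for 4 values, a rule that chance meets in about 1 of 20 sets. Akr1b7 in day 10 mesenchyme stood at 7315 CPM in number 1, against 1249.8 to 1909 CPM in the others, a gap of 0.891 of the range. Ace in day 2 mesenchyme stood at 3.17 CPM in number 1 (0.954 of the range), in a gate where it had 127 reads at day 2, of which 1 well held 59.8%. The share of Ren1-positive wells in healthy kidneys was 5% in number 1 and 6.56% in each of the others, a gap equal to the whole range. In numbers 1 to 4 these were 6 of 120, 4 of 61, 4 of 61 and 8 of 122 wells. Beside 3 equal shares any other value gives such a gap, so this flag does not set number 1 apart.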

How the results depend on the processing

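Under 18 alternatives per comparison, the Ren1 change at day 10 against healthy passed in 16. It ranged from 2.57 to 2.74 with a number left out (adjusted p = 0.0623 without number 3) and was -0.47 in Ephx3-led wells alone. Without the replicate block, it was 2.68 (edgeR, adjusted p = 0.0499), and the block changed no other member's call. Differences that passed only elsewhere were Ren1 at day 2 against healthy (DESeq2 1.09, smooth muscle-like wells 1.59) and at day 10 against day 2 (DESeq2 1.55, limma 1.71, and 2.03 without number 4, out of 1.29 to 2.03 with each number left out). Agtr1a passed at day 2 with DESeq2 (-0.66) and at day 10 with DESeq2 (-0.74), no filter (-0.73), limma (-0.62) and Adora1-led wells left out (-1.18). With plates as units, shares of wells passed for Ren1 at day 2 (9.34 percentage points) and day 10 (19.6) against healthy and at day 10 against day 2 (10.2), and for Akr1b7 at day 10 against healthy (-7.65). Plates of the same number may hold the same mouse. The cause of these differences was not tested.

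Counts of all genes past the threshold moved more. In mesenchyme they were 67 at day 2 against healthy, 193 at day 10 against healthy and 7 at day 10 against day 2. Without the block they were 42, 125 and 4, with DESeq2 571, 1144 and 376, with plates as units 162, 509 and 65, and with limma 138, 584 and 59. With a number left out they were 16 to 34, 28 to 205 and 0 to 5. Day 10 against day 2 also gave 31 with no filter and 12 with wells of the class of their gate. In endothelia the counts were 20, 88 and 2. Without the block they were 12, 49 and 0, with DESeq2 439, 760 and 289, with no filter 65, 167 and 19, with plates as units 122, 307 and 49, and with limma 79, 194 and 9. With a number left out they were 0 to 11, 6 to 58 and 0 to 6. Wells of the class of their gate gave 31 at day 2 against healthy, and they and stricter wells gave 1 each at day 10 against day 2.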
